A study of Mus musculus with 47 samples.

Results

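Genes that mark thymic tuft cells were followed across sorted medullary thymic epithelial cells (mTECs) of adult and neonatal mice. The 10 genes were Pou2f3, Trpm5, Avil, Dclk1, Il25, Gnat3, Gnb3, Chat, Sh2d6 and Ltc4s, taken by symbol from the 53402 genes listed in both count tables, which list 55471 genes in all. RNA was sequenced from C57BL/6 thymus cells sorted without CD45 and Ly51 and with EpCAM, and split by surface MHC class II into mTEChi and mTEClo. Adults of 4 to 6 weeks gave 8 WT and 4 AireKO libraries of mTEClo and 7 WT and 4 AireKO libraries of mTEChi. Adult WT mice were of 4 or 5 weeks and AireKO mice of 5 or 6 weeks, and all adult AireKO libraries were from males. Neonates of 1 to 6 days gave mTEClo libraries from 3 Ctrl, 4 EEDcKO and 3 AireEEDdKO samples, and mTEChi libraries from 5 Ctrl samples and from 3 each of EEDcKO, AireKO and AireEEDdKO. Age differed between these neonatal groups. Pups of mTEClo Ctrl were of 1 to 3 days, and all AireKO and AireEEDdKO pups of 4 or 6 days. Those of mTEChi Ctrl and of EEDcKO in both fractions were of 1 to 6 days. AireKO mice are deficient in the transcriptional regulator Aire. EEDcKO mice carry floxed alleles of Eed, which encodes a core subunit of Polycomb repressive complex 2, and lose it through Foxn1-Cre, which acts in thymic epithelium at large rather than in mTECs alone. AireEEDdKO mice carry both defects, and several neonatal libraries were pools of male and female pups.

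Tuft cells are rare chemosensory epithelial cells known from the gut and airway, and the thymic medulla holds mimetic cells that express much of the same program. Their identity depends on the transcription factor POU2F3. They sense ligands with a taste-type cascade and release mediators such as interleukin 25, cysteinyl leukotrienes and acetylcholine. In bulk libraries, fewer tuft cells and less RNA per cell cannot be told apart.

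All members are annotated as protein coding in GRCm38. Pou2f3 (ENSMUSG00000032015) lies at chr9:43123939-43210369, Trpm5 (ENSMUSG00000009246) at chr7:143069153-143094642, Gnb3 (ENSMUSG00000023439) at chr6:124834240-124840275, Sh2d6 (ENSMUSG00000052631) at chr6:72513641-72521707, Ltc4s (ENSMUSG00000020377) at chr11:50236461-50238616 and Chat (ENSMUSG00000021919) at chr14:32408203-32465989, all on the minus strand. Avil (ENSMUSG00000025432) at chr10:127000709-127020994, Dclk1 (ENSMUSG00000027797) at chr3:55242364-55539068, Gnat3 (ENSMUSG00000028777) at chr5:17962549-18019834 and Il25 (ENSMUSG00000040770) at chr14:54932695-54935837 are on the plus strand. Reads were counted without regard to strand, and 26.4% of the exon bases of Ltc4s are shared with the antisense gene Gm26542, so its level is uncertain. The shared part was at most 4.9% for every other member.

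RefSeq start sites of GRCm38.p6 were at hand for Dclk1, which has 2, Gnat3, Sh2d6, Trpm5, Avil, Ltc4s and Chat. The 250 bases before each start were searched on both strands for the POU octamer ATGCAAAT and for its first 7 letters, ATGCAAA, which the octamer contains. None of the 8 windows held the octamer, which 1.6% of all 32851 windows of this length held. The shorter motif was found in 1 window, that of Avil, on both strands, against 4.12% of all windows. The Avil window is printed because it held the match, at chr10:127000459-127000708 on the plus strand, with the motif and its reverse complement in capitals.
Avil: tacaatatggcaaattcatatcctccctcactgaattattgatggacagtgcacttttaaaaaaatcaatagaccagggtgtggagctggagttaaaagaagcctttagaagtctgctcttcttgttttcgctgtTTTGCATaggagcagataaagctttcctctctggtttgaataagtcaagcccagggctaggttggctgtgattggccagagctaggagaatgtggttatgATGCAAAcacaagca
Windows of both Dclk1 starts, chr3:55242114-55242363 and chr3:55461478-55461727 on the plus strand, are printed because Dclk1 was the member called higher in the EED comparisons, and that of Trpm5, chr7:143094643-143094892 on the minus strand, for contrast. Capitals mark CG dinucleotides.
Dclk1 first start: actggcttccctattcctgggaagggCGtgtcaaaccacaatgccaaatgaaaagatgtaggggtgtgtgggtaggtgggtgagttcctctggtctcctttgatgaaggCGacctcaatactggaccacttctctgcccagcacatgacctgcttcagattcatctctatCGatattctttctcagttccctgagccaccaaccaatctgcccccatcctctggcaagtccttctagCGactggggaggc
Dclk1 second start: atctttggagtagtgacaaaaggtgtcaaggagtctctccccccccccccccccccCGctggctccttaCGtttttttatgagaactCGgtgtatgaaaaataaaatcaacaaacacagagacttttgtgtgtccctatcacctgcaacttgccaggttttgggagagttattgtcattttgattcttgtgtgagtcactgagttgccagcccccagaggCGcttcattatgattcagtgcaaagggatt
Trpm5: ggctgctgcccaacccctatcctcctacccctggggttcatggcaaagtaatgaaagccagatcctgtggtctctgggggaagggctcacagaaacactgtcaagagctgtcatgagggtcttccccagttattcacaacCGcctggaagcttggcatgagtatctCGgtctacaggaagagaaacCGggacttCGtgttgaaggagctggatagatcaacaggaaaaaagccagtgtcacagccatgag
Each of these windows of Dclk1 and Trpm5 held 4 CG dinucleotides, and all 8 windows held between 1 and 8, beside a median of 6 over all windows. A match of letters is a description, not a binding site.

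Adult libraries held 1602125 to 3938588 counts in total, and the neonatal ones 1578579 to 4817418. Levels are given as CPM, depth-scaled counts normalised within each table, or as RPKM, the same per kilobase of exon, where genes are compared with each other. Genes counted as called where the adjusted p was under 0.05 and the change at least 2-fold. Adjusted p-values come from the quasi-likelihood test of edgeR, with Benjamini-Hochberg adjustment over the 19310 adult or 20196 neonatal genes tested. All 10 members passed the filter on low counts in the adult table and 9 in the neonatal table, where Il25 had 0 to 7 counts per library and was not tested. Aire had 753 to 921 CPM in adult mTEChi WT and 17.1 to 39.3 in AireKO, and Eed had 20.4 to 38.8 CPM in neonatal mTEChi Ctrl and 10.7 to 19.8 in EEDcKO. Summed mTEC markers, Aire among them, reached at least 1130 CPM in every library. Mitochondrial counts were 0 in all 4 adult mTEChi AireKO libraries and in replicates 3 and 4 of mTEClo AireKO, unlike the other 41 libraries, so in adult mTEChi this property and the genotype cannot be told apart. The p-values measure the spread between libraries.

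**Figure D1:**
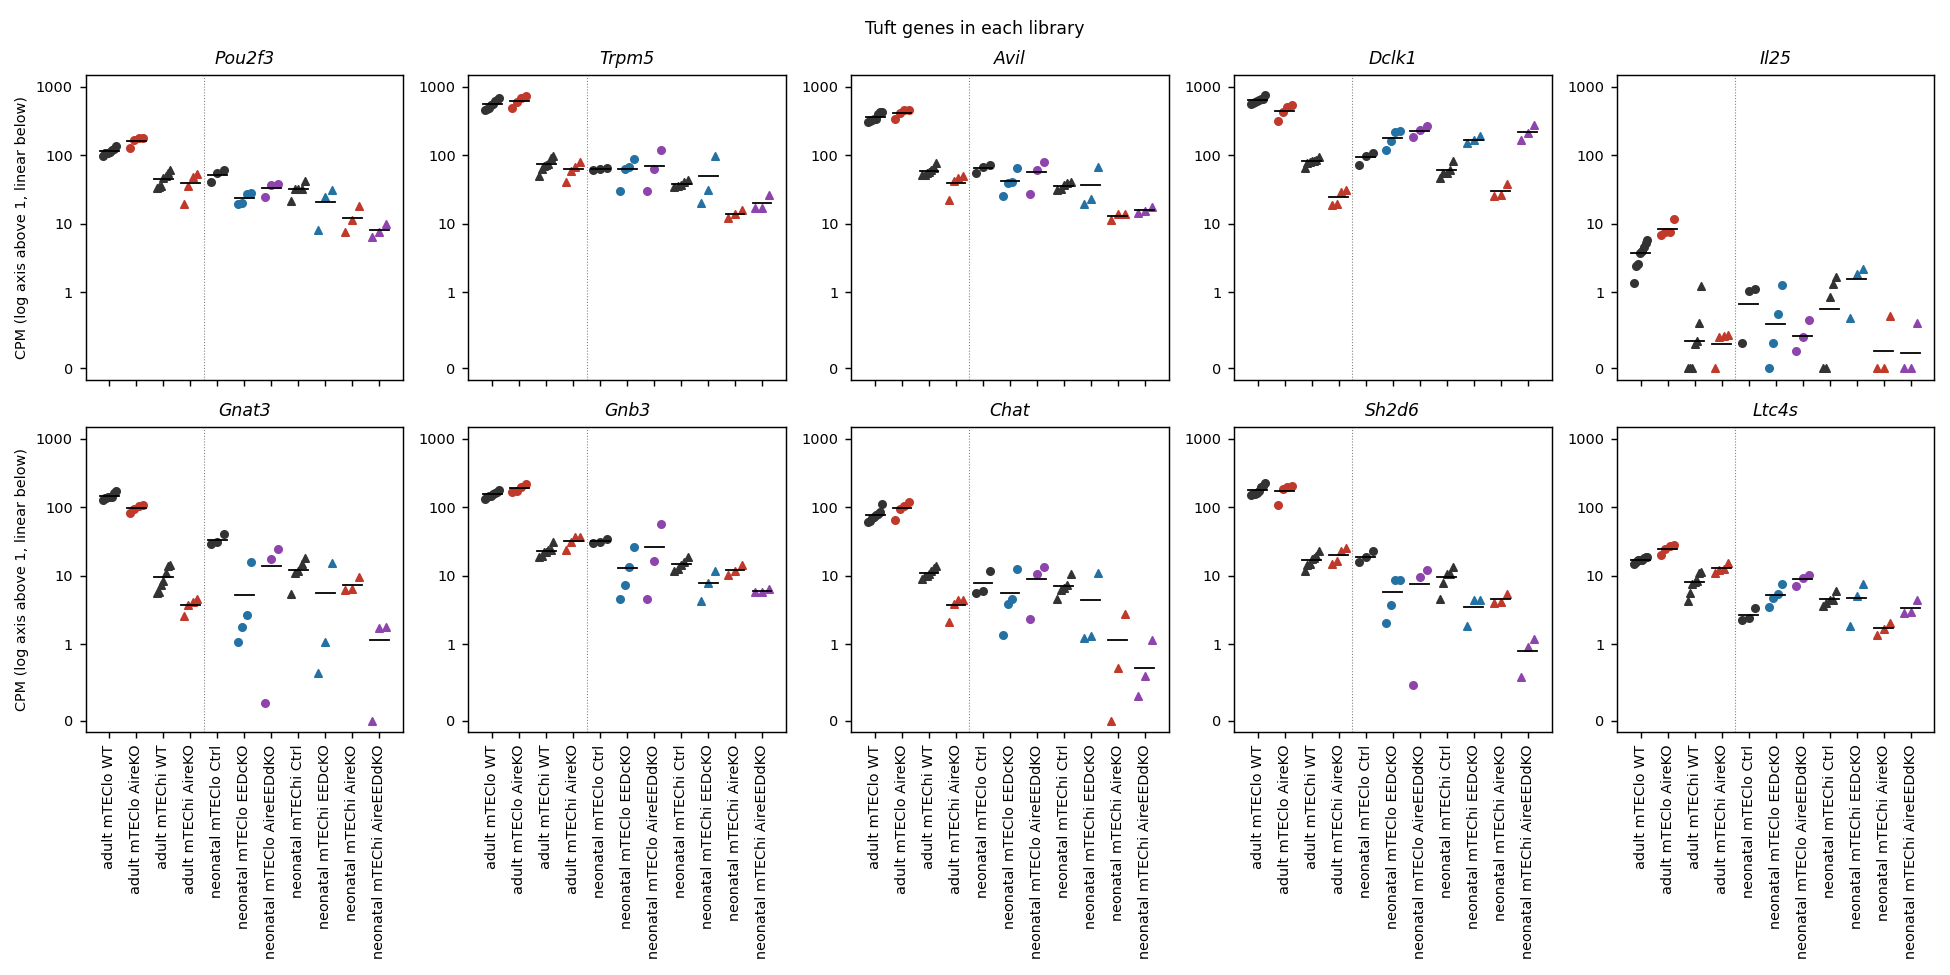
CPM of the 10 tuft genes in each of the 47 libraries, by group, on an axis that is logarithmic above 1 CPM and linear below. Circles are mTEClo, triangles mTEChi, black is WT or Ctrl, red AireKO, blue EEDcKO, purple AireEEDdKO, and bars are group means. Every adult member was higher in mTEClo WT than in mTEChi WT, and neonatal Dclk1 was high in the EED-deficient groups.

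The first comparison asked where the tuft genes are expressed at steady state. In adult WT mice all 10 were lower in mTEChi than in mTEClo, by 2.12-fold for Ltc4s to 15.4-fold for Gnat3. Among all adult genes tested, 12.4% were called lower in this contrast, and the median log2 fold change was -2.85 for the members and 0.00 for all genes. No library of one fraction overlapped with the other for any member. Overlap, here and below, was not examined over all genes, so the share of genes without it is not known.

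Pou2f3, the lineage-determining factor, had 98.0 to 137 CPM (median 109, n = 8) in mTEClo WT and 33.2 to 61.0 (median 46.8, n = 7) in mTEChi WT. The highest mTEChi library stayed below the lowest mTEClo library, with a log2 fold change of -1.35 (SE 0.15, adjusted p 4e-09). This was a smaller difference than that of the cascade downstream of taste receptors. Gnat3, the gustducin alpha subunit, went from 128 to 171 CPM (median 141) in mTEClo down to 5.71 to 14.3 (median 8.46) in mTEChi, a log2 fold change of -3.94 (SE 0.14, adjusted p 1.7e-19). Gnb3, a G protein beta subunit, went from 131 to 181 CPM (median 152) to 18.6 to 31.1 (median 22.5), a log2 fold change of -2.73 (SE 0.11, adjusted p 1.4e-18). Trpm5, the cation channel that depolarises the cell, went from 453 to 688 CPM (median 555) to 49.5 to 98.2 (median 72.0), a log2 fold change of -2.92 (SE 0.14, adjusted p 9.2e-17). All 3 cascade genes were thus well separated between the fractions.

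The structural and signalling members behaved likewise. Avil, which encodes the actin-binding protein advillin, had 300 to 432 CPM (median 338) in mTEClo and 51.3 to 76.0 (median 56.1) in mTEChi, a log2 fold change of -2.60 (SE 0.12, adjusted p 7.9e-17). Dclk1, a microtubule-associated kinase widely used as a tuft marker, had 564 to 757 CPM (median 623) and 64.8 to 94.3 (median 82.2), a log2 fold change of -2.97 (SE 0.11, adjusted p 5.9e-19). Sh2d6, an SH2 domain adaptor, had 153 to 223 CPM (median 169) and 11.9 to 22.8 (median 17.9), a log2 fold change of -3.38 (SE 0.15, adjusted p 1.2e-17). These 3 genes were among the most abundant members by CPM in mTEClo.

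Of the mediator genes, Il25, the cytokine that activates type 2 innate lymphoid cells, was the least abundant. It had 1.34 to 5.72 CPM (4 to 18 counts) in mTEClo WT and 0.00 to 1.21 CPM (0 to 4 counts) in mTEChi WT, where 3 of 7 libraries had none, and its log2 fold change was -2.92 (SE 0.45, adjusted p 1.4e-06). Chat, the enzyme that makes acetylcholine, had 61.8 to 111 CPM (median 74.8) and 9.0 to 13.9 (median 10.5), a log2 fold change of -2.78 (SE 0.15, adjusted p 1.5e-15). Ltc4s, leukotriene C4 synthase, had 14.7 to 18.9 CPM (median 17.3) and 4.23 to 11.3 (median 8.21), the smallest difference of the members, at -1.08 (SE 0.16, adjusted p 7e-07). Its call was lost without mTEChi WT replicate 4, at -0.96. Myeloid markers, a cell class that can express Ltc4s, summed to 38.2 to 68.0 CPM in mTEClo WT and 271 to 341 in mTEChi WT, and their part in the result was not tested.

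Per kilobase of exon, the order in adult mTEClo WT began with Gnat3 (106 ± 10.6 RPKM, SD, n = 8), Avil (106 ± 15.3) and Sh2d6 (105 ± 15.8), which did not differ beyond their spread. Trpm5 had 87.4 ± 13.3 RPKM, which overlapped with these within 1 SD, followed by Gnb3 at 58.5 ± 6.11, Dclk1 at 41.5 ± 3.99 and Pou2f3 at 37.0 ± 4.00, and the SDs of the last 2 overlapped. Ltc4s (17.0 ± 1.42 RPKM) and Chat (16.5 ± 3.35) could not be ordered, and Il25 was last at 3.45 ± 1.41 RPKM. In mTEChi WT, Avil (17.4 ± 2.60 RPKM), Pou2f3 (14.6 ± 3.58) and Trpm5 (11.5 ± 2.54) could not be ordered one by one, since each overlapped with the next within 1 SD.

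In adult AireKO mice the fraction difference persisted. Of the 10 members, 9 were called lower in mTEChi than in mTEClo, beside 16.7% of all genes tested, with log2 fold changes from -2.03 (Pou2f3) to -4.68 (Chat). Ltc4s was lower by 1.96-fold, just under the limit (adjusted p 0.00013). Among the 6 libraries without mitochondrial counts alone, all 10 were called lower, from -1.14 for Ltc4s to -4.94 for Chat. The replicate block, which the replicate numbers allowed here, gave 9 as well.

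In neonatal Ctrl mice none of the 9 tested members was called between the fractions, beside 6.92% of all genes called lower and 13.8% called higher. At an unadjusted p under 0.05 edgeR gave 5 members, and DESeq2 called 0. The log2 fold change of Avil was -0.86 (SE 0.32, adjusted p 0.039) and that of Dclk1 -0.64 (SE 0.22, adjusted p 0.023), both under 2-fold, and that of Pou2f3 was -0.68 (SE 0.27, adjusted p 0.05, at the threshold). Neonatal mTEClo Ctrl held 61.4, 63.2 and 64.1 CPM of Trpm5, beside 33.8 to 43.0 in the 5 mTEChi Ctrl libraries, so the groups were apart although the test over all genes missed the threshold (adjusted p 0.15). Fitted on the 2 Ctrl groups alone, Gnat3 (-1.52, adjusted p 0.00031) and Gnb3 (-1.16, adjusted p 0.00012) were called lower in mTEChi. In neonatal EEDcKO mice none was called either, beside 7.67% called lower and 14.2% called higher, and Dclk1 had a log2 fold change of -0.12 (SE 0.22, adjusted p 0.69). There edgeR gave 0 members at an unadjusted p under 0.05, DESeq2 called 0, and without mTEChi EEDcKO replicate 3 edgeR called 1, Trpm5 (-1.25). Adult and neonatal tables were scaled apart. Side by side, Trpm5 had 559 ± 84.9 CPM (n = 8) in adult mTEClo WT and 62.9 ± 1.40 (n = 3) in neonatal mTEClo Ctrl, whereas it had 73.7 ± 16.3 (n = 7) and 38.0 ± 3.73 (n = 5) in mTEChi. Aire had 324 to 333 CPM in neonatal mTEClo Ctrl and 464 to 808 in mTEChi Ctrl, beside 19.6 to 128 and 753 to 921 in adult WT. The cTEC markers summed to 1400 to 2180 CPM in neonatal mTEClo Ctrl and 353 to 687 in mTEChi Ctrl, beside 182 to 229 and 510 to 577 in adult WT. The part of these differences between the sorted fractions in the results was not tested.

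**Figure D2:**
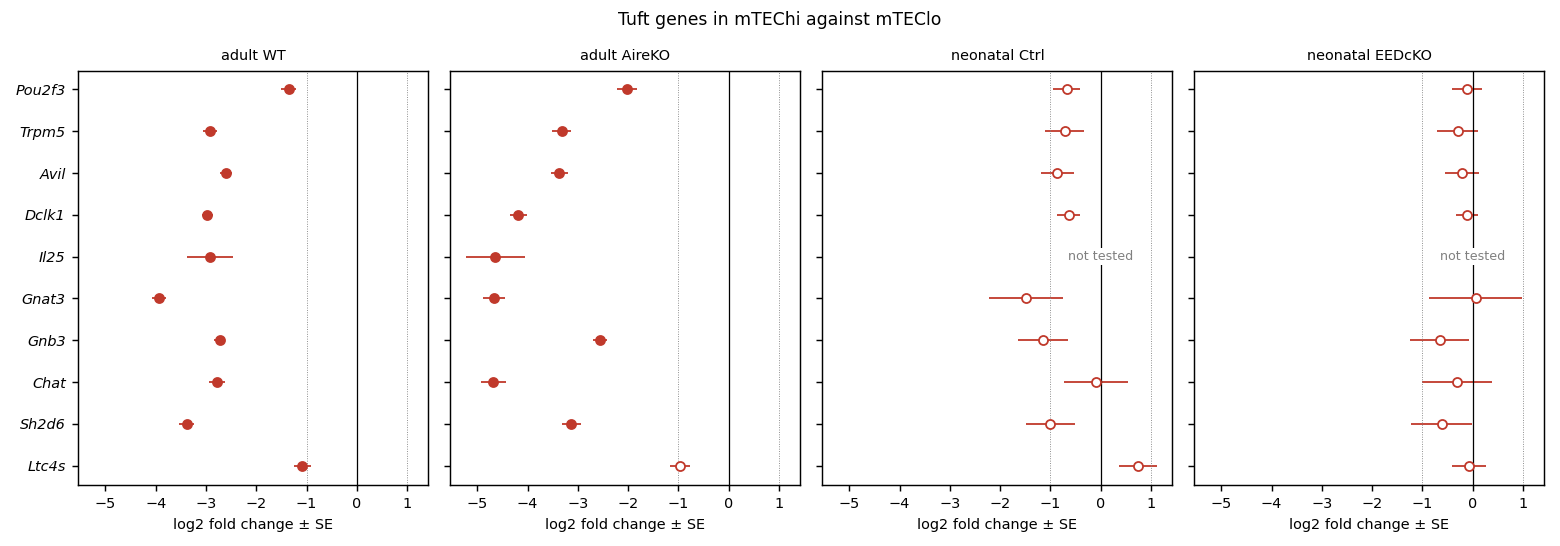
Log2 fold change of each tuft gene in mTEChi against mTEClo with its SE, for 4 genotypes and ages, with filled points for called genes and dotted lines at 2-fold. All 10 points are filled in adult WT, 9 in adult AireKO and none in neonatal Ctrl or EEDcKO, where Il25 was not tested.

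Other tuft and taste genes were split in adult WT, where 23.7% of all genes were called higher in mTEChi and 12.4% lower. Among 9 tested tuft transcription factors and coactivators, 3 were lower in mTEChi and 0 higher. Of 35 bitter taste receptor genes, 26 passed the filter on low counts, which a gene can pass through mTEClo alone, so their direction is a description of the genes that passed. These 26 were lower in mTEChi, led by Tas2r102 (-7.15, adjusted p 5.1e-12). Of 20 further tuft cell markers, 11 were lower and 1 higher, with Ccdc129 (-3.41), Bmx (-3.22), Irag2 (-3.09) and Rgs13 (-2.99) leading. Of 10 tested taste transduction genes, 4 were lower, among them the phospholipase Plcb2 (-3.00), and 2 were higher, the phototransduction alpha subunits Gnat2 (2.36) and Gnat1 (2.16). Of 9 tested eicosanoid genes, 3 were lower, including Alox5ap (-3.13) and Alox5 (-2.68) of the leukotriene pathway, and 2 were higher, among them Ptgs2 (3.39). Of 6 tested genes of acetylcholine handling other than Chat, 4 were higher in mTEChi and none lower, among them the receptor subunit Chrna3 (5.22) and the choline transporter Slc5a7 (2.86). Of 10 genes of cytokines and the type 2 circuit, 4 were higher, among them Il13 (5.40), and 1 was lower.

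The second comparison asked what Aire loss does to these genes in adults. In mTEChi 3 of 10 members fell, Dclk1, Chat and Gnat3, beside 17.8% of all genes called lower, and none rose, beside 5.63% called higher. The median over the members was -0.35 and over all genes -0.01. Dclk1 had 64.8 to 94.3 CPM (median 82.2) in WT and 29.0, 18.8, 30.8 and 19.6 in AireKO, a log2 fold change of -1.71 (SE 0.16, adjusted p 6.6e-10). Chat had 9.0 to 13.9 CPM (median 10.5) in WT and 3.95, 4.50, 4.45 and 2.09 in AireKO, at -1.56 (SE 0.28, adjusted p 3.2e-05). Gnat3 had 5.71 to 14.3 CPM (median 8.46) in WT and 2.63, 4.09, 3.77 and 4.59 in AireKO, at -1.30 (SE 0.26, adjusted p 0.00015). For all 3 genes each AireKO library lay below each WT library.

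The lineage factor did not follow. Pou2f3 had 36.0, 19.6, 53.4 and 48.5 CPM in mTEChi AireKO, with 3 libraries inside the WT range of 33.2 to 61.0 and 1 below it, and a log2 fold change of -0.18 (SE 0.19, adjusted p 0.45). Avil passed the test under 2-fold, at -0.57 (SE 0.16, adjusted p 0.0038), while Gnb3 (0.46, SE 0.14, adjusted p 0.0062) and Ltc4s (0.66, SE 0.20, adjusted p 0.0058) pointed up under 2-fold. Trpm5, Sh2d6 and Il25 did not pass. With library kind as a term, estimated from mTEClo AireKO, the same 3 members were called and the values were -2.21 for Dclk1, -2.07 for Chat and -1.56 for Gnat3. In that fit Gnb3 (adjusted p 0.063) and Ltc4s (0.36, adjusted p 0.4) no longer passed. In mTEClo AireKO the libraries without mitochondrial counts were the older ones, of 6 weeks, so library kind and age cannot be told apart there. The mTEC markers, Aire among them, summed to 2020 to 2490 CPM in mTEChi WT and 1130 to 1320 in AireKO. Aire itself had 753 to 921 CPM in mTEChi WT and 17.1 to 39.3 in AireKO. The cTEC markers summed to 510 to 577 CPM in mTEChi WT and 794 to 869 in AireKO. Schwann cell and neuron markers summed to 42.0 to 65.2 CPM in mTEChi WT and 10.0 to 15.4 in AireKO, and mast cell and basophil markers to 25.4 to 44.4 and 0.00 to 1.03, with 4 of 6 of the latter at 0 in all AireKO libraries. Their part in the result was not tested.

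In adult mTEClo only Il25 was called, and it rose, beside 4.42% of all genes called higher and 3.88% lower. Il25 had 1.34 to 5.72 CPM (median 3.82) in WT and 7.58, 6.89, 11.6 and 7.53 in AireKO, a log2 fold change of 1.28 (SE 0.30, adjusted p 0.0026). Every AireKO library lay above every WT library. Against WT, the 2 AireKO libraries with mitochondrial counts, which were also the younger ones, gave 1.05 (adjusted p 0.094), so the call was lost there. It was also lost with library kind (1.04), age in weeks (1.44) or replicate number as a term (0.88). Dclk1 had 564 to 757 CPM in WT and 427, 312, 508 and 544 in AireKO, lower in every library but under 2-fold (-0.50, SE 0.12, adjusted p 0.0031). Gnat3 had 128 to 171 CPM in WT and 93.1, 83.3, 108 and 104 in AireKO, also under 2-fold (-0.57, SE 0.13, adjusted p 0.0016). Pou2f3 (0.50, adjusted p 0.02), Gnb3 (0.30, adjusted p 0.04) and Ltc4s (0.55, adjusted p 0.014) were higher by less than 2-fold. None of the 3 passed with library kind as a term (adjusted p 0.15, 0.082 and 0.25) or with libraries holding mitochondrial counts only (0.064, 0.052 and 0.25), whereas Dclk1 and Gnat3 did. Myeloid markers summed to 38.2 to 68.0 CPM in WT and 106 to 142 in AireKO, and cTEC markers to 182 to 229 and 331 to 448, and their part in these results was not tested.

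The AireKO effect was tested for a difference between the fractions. It was more negative in mTEChi than in mTEClo for Chat, by -1.89 on the log2 scale (SE 0.31, adjusted p 5.2e-05), and for Dclk1, by -1.21 (SE 0.19, adjusted p 3.1e-05). These were 2 of 10 members, beside 11.0% of all genes called lower in this test and 2.70% called higher. Avil (-0.77, adjusted p 0.0063) and Pou2f3 (-0.68, adjusted p 0.045) differed by less than 2-fold.

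Aire loss was next compared in neonatal mTEChi. Of 9 tested members, 6 were called lower in AireKO than in Ctrl, beside 12.8% of all genes, and none higher, beside 3.56%. The median was -1.41 for the members and 0.03 for all genes. Pou2f3 had 31.5, 21.4, 31.9, 42.2 and 32.3 CPM in Ctrl and 17.8, 7.58 and 11.3 in AireKO, a log2 fold change of -1.41 (SE 0.32, adjusted p 0.0026). Trpm5 had 33.8, 37.0, 35.8, 43.0 and 40.5 CPM in Ctrl and 15.8, 13.8 and 11.9 in AireKO, at -1.50 (SE 0.48, adjusted p 0.022). Avil had 37.1, 31.8, 30.5, 39.3 and 40.0 CPM in Ctrl and 13.7, 13.8 and 11.3 in AireKO, at -1.50 (SE 0.40, adjusted p 0.0073). All 3 genes had AireKO libraries wholly below Ctrl.

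Dclk1 had 82.7, 45.6, 54.2, 61.2 and 55.0 CPM in Ctrl and 38.4, 26.2 and 24.9 in AireKO, at -1.03 (SE 0.25, adjusted p 0.004). Ltc4s had 4.50, 4.04, 3.58, 4.49 and 6.09 CPM in Ctrl and 2.06, 1.38 and 1.70 in AireKO, on 2 to 6 counts, at -1.41 (SE 0.43, adjusted p 0.017). Chat had 6.75, 4.62, 7.43, 10.8 and 6.32 CPM in Ctrl and 2.74, 0.689 and 0.00 in AireKO, on 4, 1 and 0 counts, at -3.08 (SE 1.01, adjusted p 0.025). Neither gene overlapped between the groups, nor did Dclk1. Gnat3, with 6.17, 9.64 and 6.50 CPM in AireKO beside 5.50 to 18.0 in Ctrl, and Gnb3, with 14.4, 10.3 and 11.6 beside 11.8 to 19.1, overlapped with Ctrl and did not pass. Sh2d6, with 3.96 to 5.51 CPM in AireKO beside 4.62 to 13.5 in Ctrl, did not pass either. Fitted on the compared groups alone, edgeR called it lower (-1.21, adjusted p 0.014). The count rested on few libraries: without AireKO replicate 3 it was 1, without replicate 2 it was 3, and with replicate number as a block it was 2. Pou2f3 was the member still called in each of these fits. The value of Chat ran from -4.89 without AireKO replicate 1 to -2.05 without AireKO replicate 3. Schwann cell and neuron markers summed to 43.8 to 57.1 CPM in Ctrl and 11.0 to 16.7 in AireKO, and mast cell and basophil markers to 25.9 to 31.8 and 0.00 to 3.43, with 3 of 6 of the latter at 0 in all AireKO libraries. Their part in the result was not tested.

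**Figure D3:**
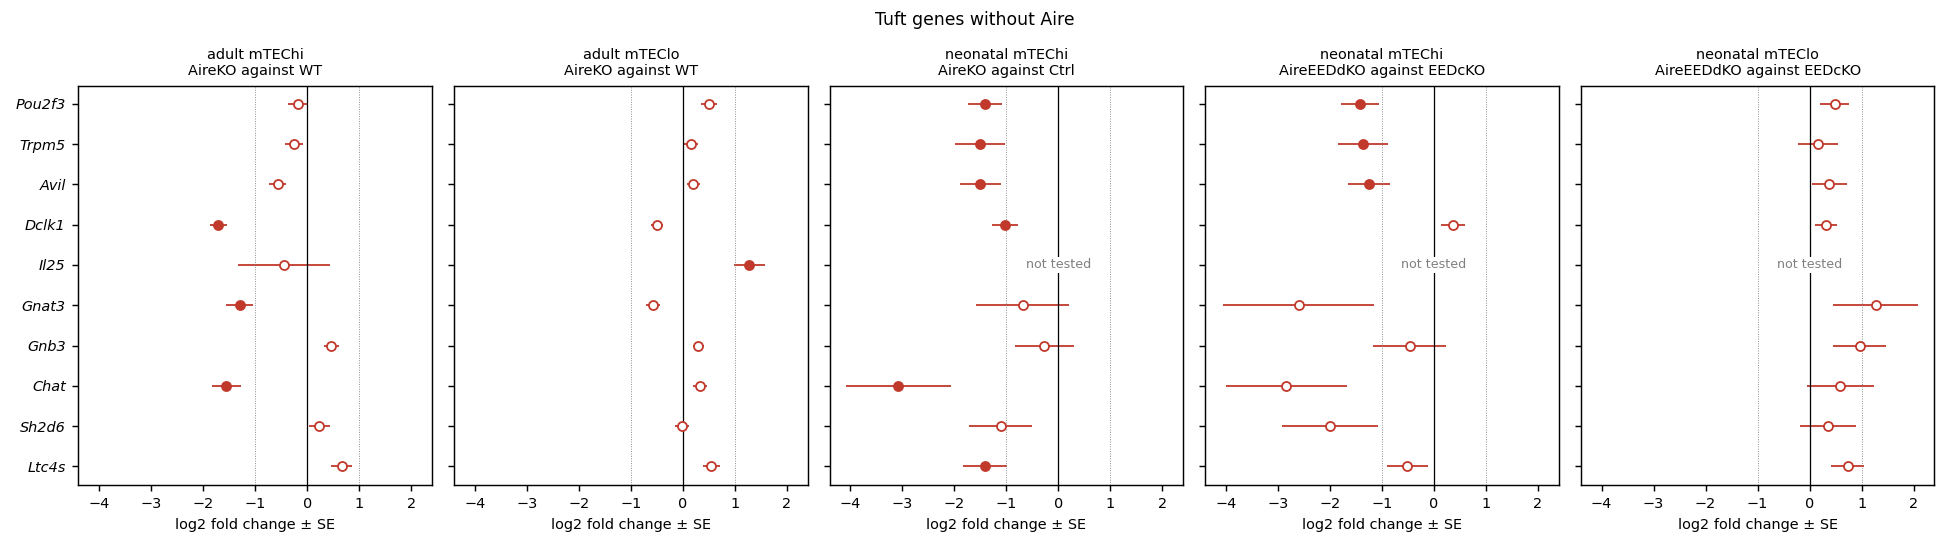
Log2 fold change of each tuft gene in Aire-deficient against Aire-sufficient libraries with its SE, in 5 comparisons, with filled points for called genes and dotted lines at 2-fold. There are 3 filled points on the left of adult mTEChi, 1 on the right of adult mTEClo, 6 on the left of neonatal mTEChi AireKO and 3 on the left of neonatal mTEChi AireEEDdKO, and none in neonatal mTEClo.

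Aire loss was also compared on the EED-deficient background. In neonatal mTEChi 3 of 9 members were called lower in AireEEDdKO than in EEDcKO, beside 8.36% of all genes, and none higher, beside 4.99%. Pou2f3 had 8.05, 24.1 and 30.8 CPM in EEDcKO and 7.65, 6.35 and 9.94 in AireEEDdKO (-1.42, SE 0.37, adjusted p 0.0084). Trpm5 had 19.8, 30.8 and 98.4 CPM and then 25.9, 16.8 and 17.0 (-1.37, SE 0.48, adjusted p 0.043). Avil had 19.2, 23 and 66.4 CPM and then 15.3, 17.3 and 14.1 (-1.25, SE 0.41, adjusted p 0.031). EEDcKO replicate 3, from pups of 1 day, was the highest library for each of these genes, and Pou2f3 and Trpm5 overlapped between the groups. Without that library no member was called. With age in days as a term, Trpm5 (adjusted p 0.11) and Avil (adjusted p 0.061) were no longer called, and DESeq2 called 4 members, Chat among them (-2.87, adjusted p 0.038). Mast cell and basophil markers summed to 15.5 to 35.9 CPM in EEDcKO and 0.00 to 1.77 in AireEEDdKO, and Schwann cell and neuron markers to 41.3 to 99.1 and 24.1 to 32.1, and their part in the result was not tested. In neonatal mTEClo none was called in AireEEDdKO against EEDcKO, beside 1.85% of all genes called lower and 3.45% higher, with 1 member at an unadjusted p under 0.05 by edgeR and 0 called by DESeq2. Leaving out EEDcKO replicate 3 gave 2, Gnat3 (2.88) and Gnb3 (1.64), both higher, and leaving out AireEEDdKO replicate 3 gave 1.

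The third comparison asked what loss of EED does to the tuft genes, and Dclk1 was the member called higher. In mTEChi it was the only member called in EEDcKO against Ctrl, and it rose, beside 8.48% of all genes called higher and 5.40% lower. It had 82.7, 45.6, 54.2, 61.2 and 55.0 CPM in Ctrl and 191, 148 and 164 in EEDcKO, or 1.49 on the log2 scale (SE 0.21, adjusted p 1.9e-05). Every EEDcKO library was above every Ctrl library. The median of the 9 tested members was -0.55, beside 0.00 for all genes. Sh2d6 had 4.62 to 13.5 CPM in Ctrl and 1.86 to 4.4 in EEDcKO, and Gnb3 11.8 to 19.1 and 4.34 to 11.6. Both were lower without overlap but were not called. In edgeR, Sh2d6 was called lower with no filter on low counts (-1.33, adjusted p 0.044) and with the compared groups alone (-1.36, adjusted p 0.015).

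On the Aire-deficient background the rise of Dclk1 was larger. Dclk1 had 38.4, 26.2 and 24.9 CPM in AireKO and 274, 208 and 167 in AireEEDdKO, or 2.88 on the log2 scale (SE 0.27, adjusted p 2.5e-07), the only member called, beside 6.69% of all genes called higher and 2.78% lower. Libraries of AireEEDdKO also exceeded those of Ctrl. Ltc4s had 2.06, 1.38 and 1.70 CPM in AireKO and 2.94, 2.89 and 4.49 in AireEEDdKO, also without overlap, but missed the threshold (adjusted p 0.16). Lower in AireEEDdKO without overlap, but not called, were Gnat3, Gnb3 and Sh2d6. Gnat3 went from 6.17 to 9.64 CPM down to 0 to 1.77. Gnb3 went from 10.3 to 14.4 CPM down to 5.77 to 6.48, and Sh2d6 from 3.96 to 5.51 down to 0.578 to 1.18. Fitted on the compared groups alone, edgeR called Gnat3 lower (-2.86, adjusted p 0.01). For Dclk1 the difference between the 2 EED effects was 1.40 on the log2 scale (SE 0.34, adjusted p 0.04). In this test 0.807% of all genes were called higher and 0.446% lower. That call was lost when any of 10 of the 14 libraries was left out. In mTEClo Dclk1 had 96.9, 108 and 72.6 CPM in Ctrl and 117, 162, 223 and 221 in EEDcKO, higher in every library and just under 2-fold (0.97, SE 0.22, adjusted p 0.0023). Its EED effect in mTEChi and mTEClo differed by 0.52 (SE 0.30, adjusted p 0.44), and none of the 9 members was called in this test, beside 0.614% of all genes called higher and 0.970% lower, with 0 members at an unadjusted p under 0.05 by edgeR and 0 called by DESeq2.

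Markers of another cell class were also higher in these EED comparisons. The 6 mesenchyme markers, each detected in every group here except 1 that was at 0 in AireKO, summed to 242 to 317 CPM in mTEChi Ctrl and 492 to 778 in EEDcKO, to 250 to 350 in AireKO and 403 to 727 in AireEEDdKO, and in mTEClo to 121 to 129 in Ctrl and 496 to 683 in EEDcKO. Their part in the rise of Dclk1 was not tested.

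In neonatal mTEClo 3 of 9 members fell in EEDcKO, beside 6.22% of all genes called lower, and none was called higher, beside 9.51%. Pou2f3 had 59.8, 54.0 and 39.9 CPM in Ctrl and 19.9, 28.4, 27.1 and 19.4 in EEDcKO, or -1.12 on the log2 scale (SE 0.28, adjusted p 0.0043). Gnat3 had 30.7, 29.1 and 40.5 CPM in Ctrl and 2.69, 1.08, 15.8 and 1.77 in EEDcKO, at -2.52 (SE 0.81, adjusted p 0.021). Sh2d6 had 18.9, 22.8 and 15.8 CPM in Ctrl and 2.02, 8.62, 8.74 and 3.79 in EEDcKO, at -1.71 (SE 0.52, adjusted p 0.015). The groups did not overlap for any of the 3 genes, although EEDcKO replicate 3 held far more Gnat3 than its group mates. These calls were not stable. That of Gnat3 was lost without Ctrl replicate 3 (adjusted p 0.05), EEDcKO replicate 2 (0.052) or EEDcKO replicate 4 (0.058), and its value ran from -4.13 to -2.22 over left-out libraries, with the largest change without EEDcKO replicate 3. That of Sh2d6 was lost without Ctrl replicate 2 (adjusted p 0.052), and Pou2f3 came under 2-fold with age in days as a term (-0.98, adjusted p 0.0079).

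The other members were uneven. Gnb3 had 34.5, 30.5 and 31.5 CPM in Ctrl and 7.41, 13.3, 26.2 and 4.54 in EEDcKO, also without overlap, but missed the threshold (adjusted p 0.061). DESeq2 called it (-1.35, adjusted p 0.047), as did edgeR with no filter (adjusted p 0.014), with a stricter filter (adjusted p 0.047) and without EEDcKO replicate 3 (-1.97, adjusted p 0.0088). Ltc4s pointed the other way, with 3.38, 2.46 and 2.25 CPM in Ctrl and 4.71, 5.39, 7.68 and 3.53 in EEDcKO, without overlap (adjusted p 0.056). It was called higher with age in days as a term (1.04, adjusted p 0.043) and without EEDcKO replicate 4 (1.12, adjusted p 0.034). Trpm5 had 63.2, 61.4 and 64.1 CPM in Ctrl and 68.0, 62.2, 88.7 and 30.0 in EEDcKO, on both sides of the Ctrl values. Thus the channel gene and the gustducin gene of the same cascade gave different values in the same libraries. The cTEC markers summed to 1400 to 2180 CPM in mTEClo Ctrl and 219 to 737 in EEDcKO, and their part in these results was not tested. Among other tuft genes in this contrast, 4 of 20 further tuft markers were lower and 1 higher, led by Nrgn (2.41) and Cd300lf (-2.19). Of 8 tested tuft transcription factors and coactivators 1 was higher, Hmx2 (2.17). Of 10 tested taste transduction genes 3 were higher and 0 lower. Of 7 acetylcholine handling genes 2 were higher and 3 lower. The cytokine list had 1 of 10 higher and 2 lower, the eicosanoid list 1 and 1 of 10, and 0 of 2 tested bitter taste receptors were called. Among all genes 9.51% were called higher and 6.22% lower.

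**Figure D4:**
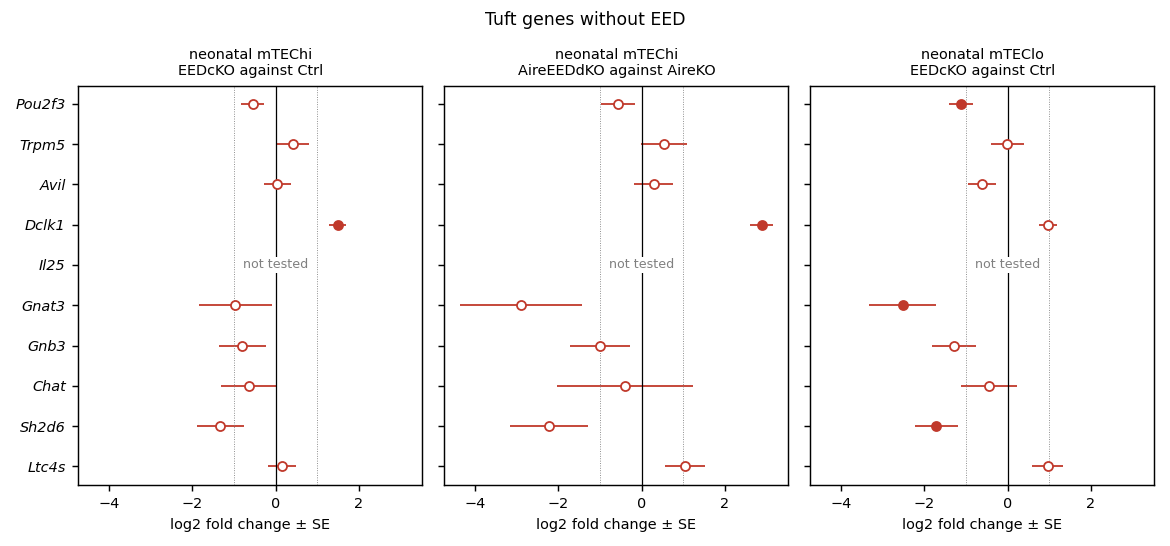
Log2 fold change of each tuft gene in EED-deficient against EED-sufficient neonatal libraries with its SE, in 3 comparisons, with filled points for called genes and dotted lines at 2-fold. Dclk1 stands on the right in each panel, and Pou2f3, Gnat3 and Sh2d6 are filled on the left in mTEClo.

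The neonatal libraries of EED-deficient mice varied widely within a group. In mTEClo AireEEDdKO, Gnat3 had 24.3 and 17.9 CPM in replicates 1 and 2 and 0.232 CPM, a single count, in replicate 3. Sh2d6 went from 9.78 and 12.3 CPM to 0.463 in the same library, and Gnb3 from 57.4 and 16.6 to 4.63. Dclk1, by contrast, had 262, 231 and 186 CPM there. In mTEChi EEDcKO, Gnat3 had 0.619 and 1.09 CPM in replicates 1 and 2 and 15.4 in replicate 3, and Chat 1.24, 1.31 and 11.0. Without mTEChi EEDcKO replicate 3, Gnat3 (-3.56, adjusted p 0.042) and Chat (-2.47, adjusted p 0.042) were called lower than in Ctrl. Replicate 3 was of 1 day in mTEChi EEDcKO, of 6 days in mTEClo EEDcKO and of 4 days in mTEClo AireEEDdKO.

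**Figure D5:**
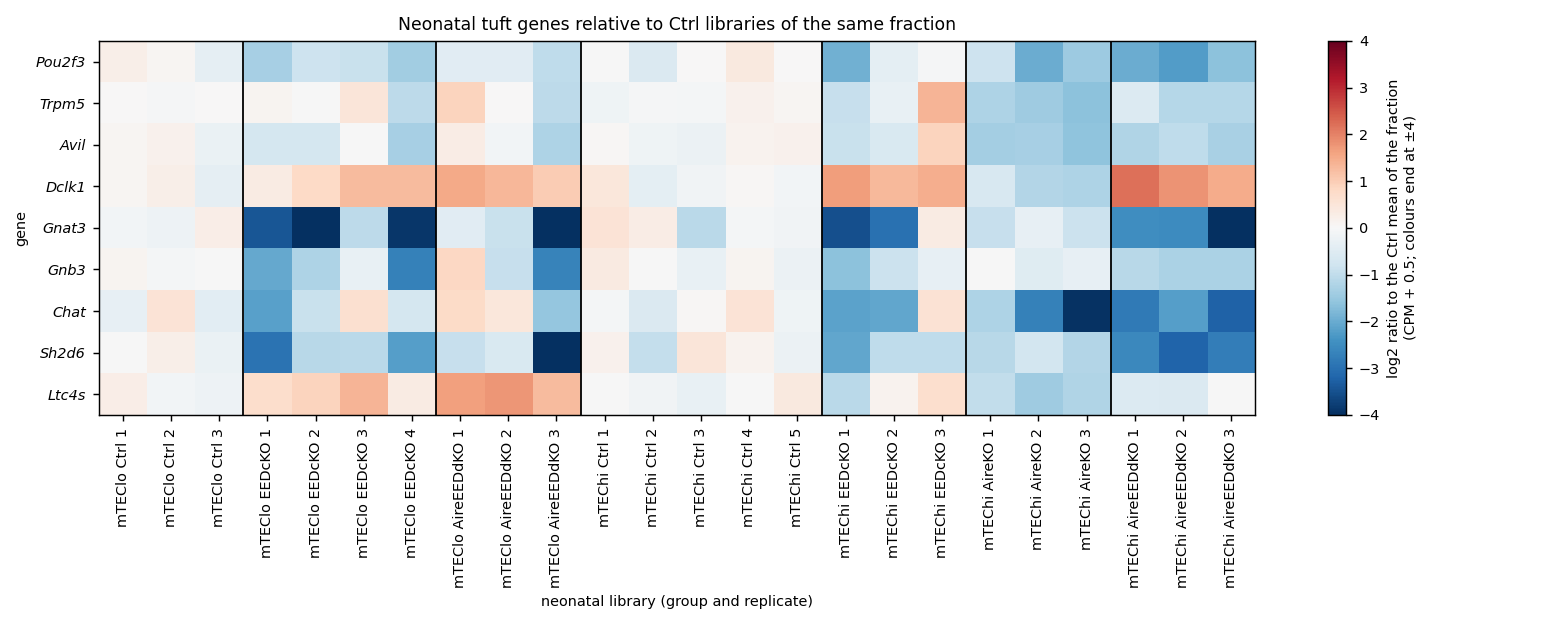
Log2 ratio of each of 9 tuft genes in each of the 24 neonatal libraries to the mean of the Ctrl libraries of the same fraction, after adding 0.5 CPM, with red for higher and blue for lower values. Dclk1 is red in all EED-deficient libraries, Gnat3 and Sh2d6 are blue in most of them, and mTEClo AireEEDdKO replicate 3 is blue for both.

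Across libraries, likeness to Pou2f3 was measured as the smaller of Pearson's r over the 23 adult and over the 24 neonatal libraries, among 18535 genes. These correlations describe libraries that share fraction and genotype effects. Avil (0.85, rank 1) and Chat (0.83, rank 2) came first. The next members were Sh2d6 (0.78, rank 7), Trpm5 (0.77, rank 13), Gnb3 (0.70, rank 53), Gnat3 (0.63, rank 211) and Ltc4s (0.48, rank 1121). Dclk1 had 0.88 over adult and -0.01 over neonatal libraries (rank 6673). The 5 genes outside the list with the most similar pattern were Tekt5 (0.82), Dtx4 (0.80), Scn2a (0.79), Stk38 (0.79) and Chrdl1 (0.78).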

How the data were processed

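The deposited values are raw read counts per Ensembl gene, which the authors made from RamDA-type bulk libraries with fastp, STAR on mm10, SAMtools, Picard duplicate removal and HTSeq, without regard to strand. The annotation release is not given in the sources used here. The authors' normalized tables were not used. Groups came from the titles in the labels.

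Symbols, coordinates and exon lengths came from the GENCODE annotation of GRCm38, and promoter windows from RefSeq. In R 4.3.3 with edgeR 4.0.16, genes were filtered (filterByExpr), scaled by TMM and fitted over all groups of a table, with library sizes summed over the genes kept. Contrasts used the quasi-likelihood test with Benjamini-Hochberg adjustment. Fold changes use a prior count of 0.125. A count of 0 allows up to 3 counts. This floor covers counting error only, whereas the SEs and SDs include the spread between libraries. The fit was tested on simulated data. DESeq2 1.42.0, other scalings and filters, age, library kind, single groups, left-out libraries and a replicate block were alternatives.

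Named are the members, Aire, Eed, up to 4 called genes of each further list by size of change, and the 5 genes most like Pou2f3. The members and lists were chosen with earlier results of these data known. Same-numbered libraries deviated together only in adult AireKO mTEChi against mTEClo and in neonatal mTEChi AireEEDdKO against AireKO. The correlations were 0.14 to 0.22 and 0.11 to 0.21. The values reported for these contrasts come from the fit without pairs, and the replicate block was an alternative.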

Additional observations from a re-analysis of the deposited data

Results flagged for a closer look

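The effect of Aire loss differed between the adult fractions for 4 members by the interaction test, by -0.68 for Pou2f3, -0.77 for Avil, -1.21 for Dclk1 and -1.89 for Chat on the log2 scale, each more negative in mTEChi. The effect of EED loss on Dclk1 in neonatal mTEChi differed with Aire, by 1.40. Single libraries stood far from their group in 4 of 60 group and gene pairs tested, and chance alone flags about 1 in 20. Il25 had 11.6 CPM in adult mTEClo AireKO replicate 3 and 0.0 in adult mTEChi AireKO replicate 3. The latter group held 0 to 1 counts of Il25 per library, under the floor of 3 counts, so that flag shows no deviation beyond counting error. Gnat3 had 15.8 CPM in neonatal mTEClo EEDcKO replicate 3, and Chat had 111 CPM in adult mTEClo WT replicate 5.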

How the results depend on the processing

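Of 296 counts of called members under alternatives, 259 were within 1.5 times the reported count. Without a minimum change the counts were 6 for adult mTEChi AireKO against WT, 6 for mTEClo, 4 for the difference between them and 3 for neonatal Ctrl mTEChi against mTEClo. In adult mTEClo AireKO the count was 0 with age in weeks, library kind or the replicate block as a term and with libraries holding mitochondrial counts only. For neonatal mTEChi EEDcKO against Ctrl it was 2 with no filter on low counts and with the compared groups alone, and 2 for AireEEDdKO against AireKO with the compared groups alone. For AireEEDdKO against EEDcKO it was 1 with age in days, the compared groups alone or the replicate block. For neonatal Ctrl mTEChi against mTEClo it was 2 with no filter and with the compared groups alone. The replicate block gave 2 for neonatal mTEChi AireKO against Ctrl, where the numbers do not pair the libraries, and moved no count where they do (9 and 1). Leaving out single libraries gave 1 to 3 for neonatal mTEChi EEDcKO, 1 to 6 for AireKO, 0 to 4 for AireEEDdKO against EEDcKO (0 without EEDcKO replicate 3, 1 without each AireEEDdKO library), 0 to 2 for mTEClo AireEEDdKO, 0 to 1 for EEDcKO mTEChi against mTEClo and 0 to 1 for the Aire by EED interaction. Of 783 alternatives of 40 called single-gene values, 734 were still called, 49 were not and 0 changed sign. Of 1854 alternatives of 100 uncalled values, 33 became called and 67 changed sign, among them Dclk1 in EEDcKO mTEChi against mTEClo (0.03 with the replicate block, -0.28 to 0.08 without single libraries), and Pou2f3 in adult mTEChi AireKO (-0.40 to 0.05) and in EEDcKO mTEChi against mTEClo (-0.44 to 0.20). The causes were not tested. Depth limits Il25, which had 0 to 7 counts per neonatal library.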
